A study of Mus musculus with 4 samples.

Results

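The aminoacyl-tRNA synthetases were examined in cultured mouse neural stem cells. Members were all protein-coding genes whose symbol follows the naming scheme of the family, a 1-letter amino acid code followed by "ars", with Eprs, Farsa and Farsb included. The rule used names only and no measured value. It found 37 genes among 55487 rows. Symbols ending in 2 were taken as mitochondrial enzymes, which gave 17 mitochondrial and 20 cytosolic members.

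Aminoacyl-tRNA synthetases join each amino acid to its own tRNA and so fix the reading of the genetic code. Cytosol and mitochondria use separate sets, both encoded in the nucleus, although Kars and Gars each supply both compartments from a single gene, and the mitochondrial glutamine tRNA is charged by an indirect route in place of a glutaminyl enzyme. Several cytosolic enzymes (Eprs, Iars, Lars, Mars1, Qars, Rars, Kars and Dars) sit in the multisynthetase complex, held by the scaffold proteins Aimp1, Aimp2 and Eef1e1, and the remaining ones lie outside it. Many cytosolic synthetase genes are known targets of Atf4, the transcription factor induced when amino acids run short, together with genes for amino acid synthesis and uptake. The transcription factor p53, encoded by Trp53, is known for halting the cell cycle after damage.

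Primary neural stem cells had been derived from the neocortex of mid-gestation embryos, and 1 library was deposited for each of 4 groups. The control carried floxed Tut1 (genotype Tut1f/f) and received empty lipid nanoparticles (LNP). The Tut1 KO group had the same genotype and received Cre-LNP, nanoparticles with mRNA for Cre recombinase, the enzyme that removes DNA between loxP sites. The Trp53 KO group (p53f/f) and the double KO group (Tut1f/f;p53f/f) also received Cre-LNP, for 3 days according to the text of the series. All 4 cultures thus carried floxed alleles, only the control had no Cre, and each genotype came from its own mouse line, so that a deletion and the culture it was made in cannot be told apart. Levels are given in TPM (transcripts per 1000000 transcripts), a unit scaled to transcript length that sums to the same total in every library and keeps no sequencing depth. Without replicates no test was run, and no difference could be compared with the spread among cultures of a group.

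Both the labels and the cell type were checked first. Tut1 had 12.2 TPM in the control, 29.8 TPM in the library labelled Tut1 KO, and 12.5 and 13.7 TPM in Trp53 KO and double KO cells, and per the study's methods the floxed part is 1 exon, whose loss a value for the whole gene cannot show. Tut1 thus gave no check of the Tut1 labels, and directions drawn from Tut1 rest on them. Trp53 was at 120 and 100.4 TPM in the intact libraries (control and Tut1 KO) and at 39.7 and 41.9 TPM in the deleted ones (Trp53 KO and double KO), and its targets Cdkn1a and Mdm2 were lower in both deleted libraries as well. All 8 neural stem cell markers had TPM of at least 10 in every library, whereas the 4 microglial, 3 endothelial and 3 mesenchymal markers were under 1 TPM throughout. Of the neuronal markers Map2 was high at 141 to 208 TPM and Tubb3 was at 10.98 to 12.6 TPM, with Rbfox3 at 3.998 to 5.18 TPM and Stmn2 at or near 0. The astrocyte marker Aldh1l1 was at 76.1 to 90.8 TPM, while Gfap and Aqp4 were under 1 TPM. The 4 oligodendrocyte markers summed to 4.50 to 8.36 TPM. Xist, the RNA of X inactivation, was at 188 and 204 TPM in Tut1 KO and Trp53 KO cells and near 0 in the others, so that a library with Xist and one without it met in each Tut1 contrast and in both Trp53 contrasts.

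Cytosolic synthetase transcripts were more abundant than mitochondrial ones in all 4 libraries. In the control, cytosolic members ranged from 37.2 TPM (Wars, tryptophan) to 258 TPM (Kars, lysine), with a median of 91.7 TPM over 20 genes, and mitochondrial members from 3.44 TPM (Pars2, proline) to 38.01 TPM (Iars2, isoleucine), with a median of 16.01 TPM over 17 genes. In the control only Iars2 exceeded the lowest cytosolic member. The summed level of the cytosolic members was 2030 TPM in the control, 1891 TPM in Tut1 KO, 2159 TPM in Trp53 KO and 2195 TPM in double KO cells. The mitochondrial sum was 292 TPM in the control, 278 TPM in Tut1 KO, 277 TPM in Trp53 KO and 286 TPM in double KO cells. In bulk RNA fewer cells of a type and less RNA per cell cannot be told apart. The ratio of the sums was 6.96 and 6.80 in the libraries with intact Trp53 and 7.78 and 7.69 in those without it.

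**Figure D1:**
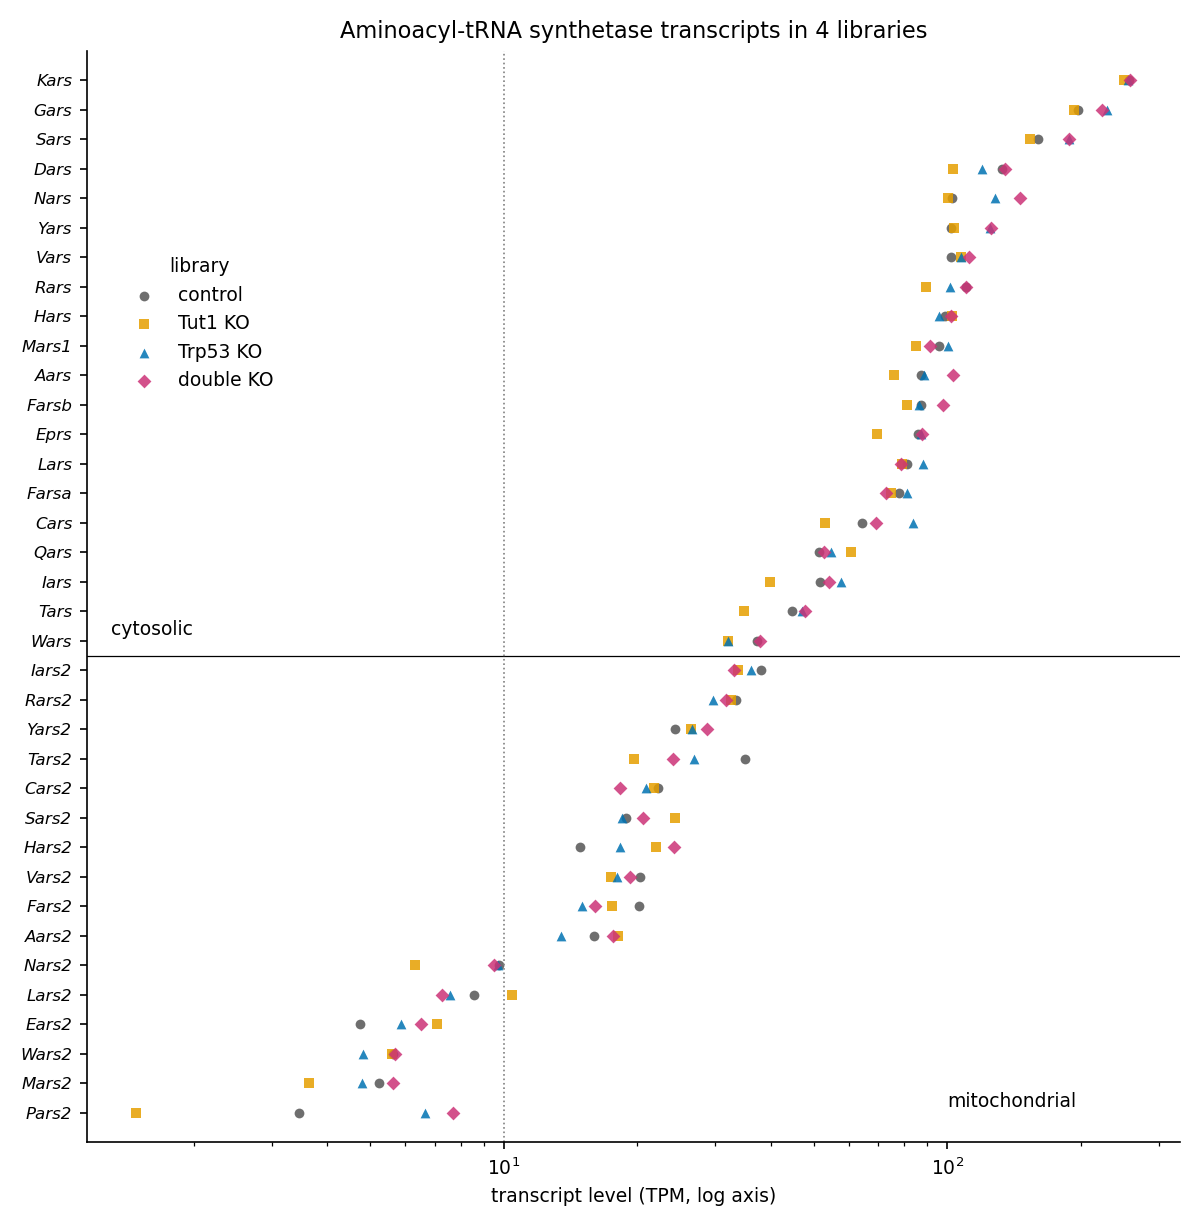
Transcript level (TPM, log axis) of 36 synthetases in each of the 4 libraries, 1 symbol per library, with cytosolic members above the horizontal line and mitochondrial members under it. The dotted line marks 10 TPM. Every cytosolic member lies above it, from 32.0 to 259 TPM, and 5 mitochondrial members lie under it in all libraries.

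Kars was the most abundant member and also the steadiest, with 258 TPM in the control, 250 TPM in Tut1 KO, 255 TPM in Trp53 KO and 259 TPM in double KO cells. Its highest value was 1.03 times its lowest. Gars (glycine) and Sars (serine) followed in level. Across the cytosolic set the highest library exceeded the lowest by a median of 1.22 times and by at most 1.58 times, in Cars (cysteine). The mitochondrial set varied more, with a median of 1.35 times and a maximum of 5.18 times in Pars2, whose level was low.

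For each mitochondrial enzyme the cytosolic gene for the same amino acid was set beside it, Farsa standing for phenylalanine and Eprs for both glutamate and proline. The cytosolic transcript was the higher one in all 17 pairs in every library, by a median of 6.63 times in the control and 5.72 to 6.58 times in the others. The closest pairs were threonine and isoleucine. Tars exceeded Tars2 by 1.28 times in the control and by 1.75 to 1.98 times in the other libraries, and Iars exceeded Iars2 by 1.19 to 1.64 times. At the far end Mars1 exceeded Mars2, both for methionine, by 16.3 to 23.4 times, and Eprs exceeded Pars2 by 11.4 to 46.9 times.

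Differences between libraries were taken on the log2(TPM + 1) scale, with the condition that 1 or more of the compared libraries reached 10 TPM. Such differences understate the change of low genes. No synthetase reached a difference of 1 in any of the 5 contrasts. Over all tested genes the share past this size was 4.1% in Tut1 KO minus control, 3.21% in double KO minus Trp53 KO, 3.83% in Trp53 KO minus control, 3.9% in double KO minus Tut1 KO and 3.31% in double KO minus control. A change of 1.5-fold was passed by 1 of 32 members in Tut1 KO minus control (Tars2, against 12.1% of all genes) and by 1 of 31 in double KO minus control (Hars2, against 7.76%). It was passed by 0 of 31 members in each of the other contrasts (double KO minus Trp53 KO, Trp53 KO minus control, double KO minus Tut1 KO), where the shares of all genes were 7.89%, 8.42% and 10.7%. Differences of the tested members were thus small, and the account below turns on their direction across libraries. The 5 members under 10 TPM in all libraries, with wider differences in Pars2, are given last.

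Deleted and intact Trp53 were compared in a pair of contrasts that share no library. These were Trp53 KO minus control, with intact Tut1, and double KO minus Tut1 KO. The cytosolic median was 0.07 in Trp53 KO minus control, against -0.05 for all 9055 tested genes. It was 0.27 in double KO minus Tut1 KO, against 0.09 for all 8950. After a correction for transcript GC content and length it was 0.13 in the latter contrast, and no corrected value over all genes is given beside it. Mitochondrial members had medians of -0.09 and -0.03. Of the 20 cytosolic members 17 lay above the median of all genes in the former contrast and 14 in the latter. Of the 11 mitochondrial members tested 4 lay above it in each contrast. In double KO minus control, where neither library had Xist, the cytosolic median was 0.06 and 17 of 20 members were above 0, against 4497 of 9022 genes. That contrast also differs in the Tut1 label, in Cre treatment and in mouse line. The part of the Xist difference in the Trp53 contrasts was not tested.

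In 10 of the 20 cytosolic genes both Trp53-deleted libraries were above both intact ones, and in 0 of 20 both were below. Among all 9314 genes that reached 10 TPM in any library the shares were 14.2% above and 13.4% below. The genes were Nars, Cars, Iars, Yars, Sars, Tars, Aars, Gars, Eprs and Vars. In 5 of them (Nars, Yars, Sars, Gars and Cars) the lowest deleted library exceeded the highest intact one by at least 0.1 on the log2 scale, a gap that 5.57% of all genes had in this direction. The gap was thin in others, with 108 TPM in both the highest intact and the lowest deleted library for Vars (valine, a gap of 0.002). All 10 had TPM well above 10 in every library, so the filter on low values had no part in their being counted.

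**Figure D2:**
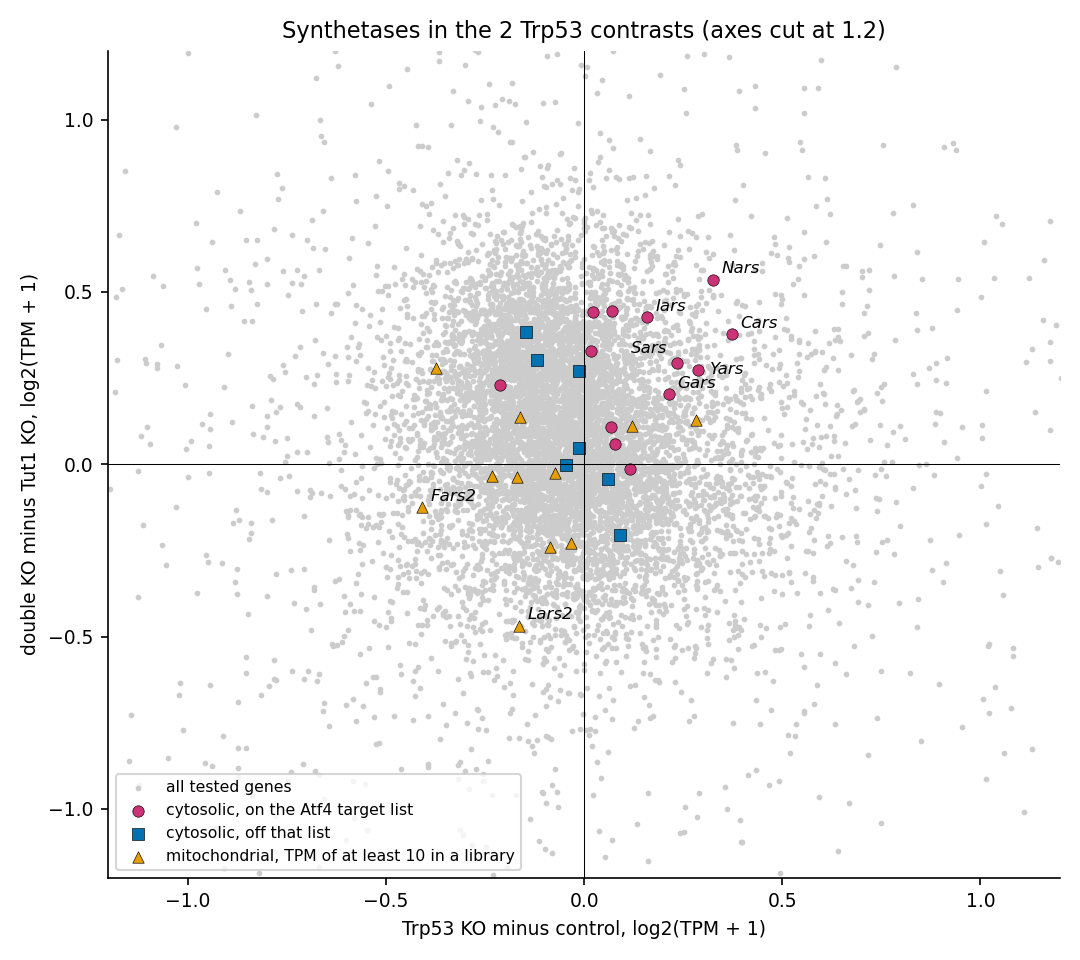
Difference in log2(TPM + 1) of 31 synthetases in Trp53 KO minus control (horizontal axis) and in double KO minus Tut1 KO (vertical axis). Both they and the 9314 genes in grey reached 10 TPM in any library. Both axes are cut at 1.2. Cytosolic members on the Atf4 target list lie mostly in the upper right, with Nars at 0.33 and 0.54 and Cars at 0.37 and 0.38, and Fars2 and Lars2 lie in the lower left. Lars2 reached 10 TPM in the Tut1 KO library only.

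Nars, which charges the asparagine tRNA, had the widest gap between deleted and intact libraries of the 10. It was at 102 TPM in the control, 100.3 TPM in Tut1 KO, 128 TPM in Trp53 KO and 146 TPM in double KO cells. Both deleted libraries stood apart from the intact pair, with differences of 0.33 and 0.54. Of all tested genes 90.6% had a difference at or under that of Nars in the former contrast and 91.8% in the latter.

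Cars (cysteine, chromosome 7, 143557230 to 143600090, GRCm38) was at 64.3 TPM in the control, 52.95 TPM in Tut1 KO, 83.7 TPM in Trp53 KO and 69.1 TPM in double KO cells. Its differences were 0.37 and 0.38. Within each Trp53 state the library with the Tut1 label was the lower one. An antisense transcript overlaps Cars, and reads of both could not be told apart if strand was not used in counting, which is not stated.

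Yars (tyrosine, chromosome 4, 129189760 to 129219607) was at 102 TPM in the control, 103.8 TPM in Tut1 KO, 125 TPM in Trp53 KO and 126 TPM in double KO cells. Sars (serine, chromosome 3, 108424865 to 108445209) was at 160.2, 154, 189 and 189 TPM in the same order. In both genes the libraries fell into 2 close pairs by the Trp53 label, with differences of 0.29 and 0.27 for Yars and 0.23 and 0.29 for Sars. Yars also overlaps a gene on the opposite strand (C77080). Gars (glycine, chromosome 6, 55038007 to 55079500) had the same order at a higher level, with 198 and 194 TPM in the intact and 229 and 223 TPM in the deleted libraries.

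In a further group the library labelled Tut1 KO was the lowest of the 4, and in Tars, Iars and Eprs the other libraries lay closer together. Tars (threonine, chromosome 15, 11382301 to 11399665) was at 44.7 TPM in the control, 34.8 TPM in Tut1 KO, 47.0 TPM in Trp53 KO and 47.7 TPM in double KO cells. Iars (isoleucine, chromosome 13, 49682100 to 49734267), a subunit of the complex, was at 51.6, 39.9, 57.7 and 54.1 TPM. Eprs, the joined glutamyl-prolyl enzyme of the complex, was at 86.2, 69.6, 87.1 and 87.6 TPM. For Eprs the control differed from the Trp53 KO library by 0.02 while the Tut1 KO library was lower by a difference of -0.30, so that its place among the 10 rests on a narrow margin. Aars (alanine) was at 87.4, 75.8, 88.7 and 103 TPM, with the double KO library apart as well, and it shares exons on its own strand with Exosc6, which leaves its value uncertain.

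Without the library labelled Tut1 KO, the comparison became one of both deleted libraries with the control alone, chosen after the data were seen. In this form 11 of 20 cytosolic members were above the control in both, against 26.9% of all 9205 tested genes, and 0 of 20 were below, against 37.3%. This rule is looser, so that none of the same 10 genes could drop out, and Qars was added. Of 11 mitochondrial members 2 were above (Hars2 and Yars2) and 6 below. After GC content and length were corrected for, 12 of 20 were above both intact libraries, with Farsb and Kars added to the 10, against 16.5% of all genes.

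The remaining cytosolic members showed no order by the Trp53 label. Wars was at 37.2 TPM in the control, 32.1 TPM in Tut1 KO, 32.0 TPM in Trp53 KO and 37.8 TPM in double KO cells. Hars (histidine) stayed between 95.9 and 102.5 TPM, and Farsa and Farsb, the subunits of the phenylalanine enzyme, between 72.7 and 81.4 TPM and between 81.1 and 98.0 TPM. Within the complex Dars (aspartate) and Rars (arginine) were lowest in the Tut1 KO library, at 103 and 89.4 TPM, and near their control level in the double KO library. Qars (glutamine) went the other way, with its highest value, 60.9 TPM, in the Tut1 KO library. Lars (leucine) and Mars1 were highest in the Trp53 KO library. Mars1 overlaps Ddit3 and Farsb overlaps Sgpp2 on the opposite strand.

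The division followed a list of 13 cytosolic synthetases commonly named as Atf4 targets. Of these, 10 of 13 had both deleted libraries above both intact ones, against 14.2% of all tested genes. The others were Lars, Mars1 and Wars. Of the 7 cytosolic members off the list it was 0 of 7, too few to be told from 14.2%. This count was 1 (Farsb) with the median of all genes set to 0 or quantile normalization and 2 (Farsb and Kars) after the GC correction. By the looser rule without the Tut1 KO library it was 1 (Qars). Medians on the list were 0.12 in Trp53 KO minus control, where both had intact Tut1, and 0.29 in double KO minus Tut1 KO, and off the list they were -0.01 and 0.05. By place in the multisynthetase complex, 2 of 8 members inside it were above, too few to be told from 14.2%, and 8 of 12 outside it. Both divisions overlap, since 9 of the 12 members outside the complex but 4 of the 8 inside it are on the Atf4 list. The list was drawn up with earlier results of these data known, and its counts describe these libraries only.

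Other genes of the pathway were taken from lists that, like the one above, were drawn up with earlier results known. Of 14 tested Atf4 targets of amino acid supply (enzymes that make amino acids and carriers that import them) 12 had both deleted libraries above both intact ones, with 9 of them by at least 0.1, and 0 were below. The shares of all genes were 14.2% above, 5.57% above by that gap and 13.4% below. Asns, the enzyme that makes asparagine, was at 141 TPM in the control, 115 TPM in Tut1 KO, 197 TPM in Trp53 KO and 179 TPM in double KO cells. Atf4 itself was at 131, 131, 133 and 230.3 TPM, so that only the double KO library stood apart. Both deleted libraries were thus above both intact ones for Atf4 as well, with differences of 0.02 where Tut1 was intact and 0.81 under the Tut1 label.

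Of 7 tested Atf4 targets of stress feedback 2 were above, beside 14.2% of all genes, and 1 was below, beside 13.4%. Nupr1, a stress-induced chromatin protein, was at 2.23 and 4.55 TPM in the intact and 11.2 and 10.9 TPM in the deleted libraries, with differences of 1.92 and 1.11. It passed the filter only through the libraries in which it was high, and without it 1 of 6 was above. Sesn2, which is also a known p53 target, went the opposite way, with 59.1 and 71.1 TPM in the intact and 33.0 and 30.7 TPM in the deleted libraries.

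Scaffolds of the complex had thin margins, and tRNA handling genes were near the background. Aimp1 was at 125, 106, 128 and 138.5 TPM in the same order of libraries. Aimp2 was at 76.3, 71.0, 76.9 and 79.4 TPM, and Eef1e1 at 73.3, 56.5, 66.2 and 75.1 TPM. Aimp1 and Aimp2 were in the order of the Trp53 label by margins of 0.04 and 0.01, and Eef1e1 was not. Xpot, which exports tRNAs from the nucleus, was at 44.4, 35.1, 46.2 and 46.5 TPM, close to the order seen in Tars. It was the only one of 12 tested genes of tRNA maturation and export with both deleted libraries above, and 2 were below. For cytosolic elongation the count was 1 of 6 above and 0 below, and for mitochondrial translation factors 0 of 5 in either direction. Of 79 cytosolic ribosomal proteins 7 were above and 7 below, and of 78 mitochondrial ones 5 were above and 10 below, beside 14.2% and 13.4% of all genes.

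**Figure D3:**
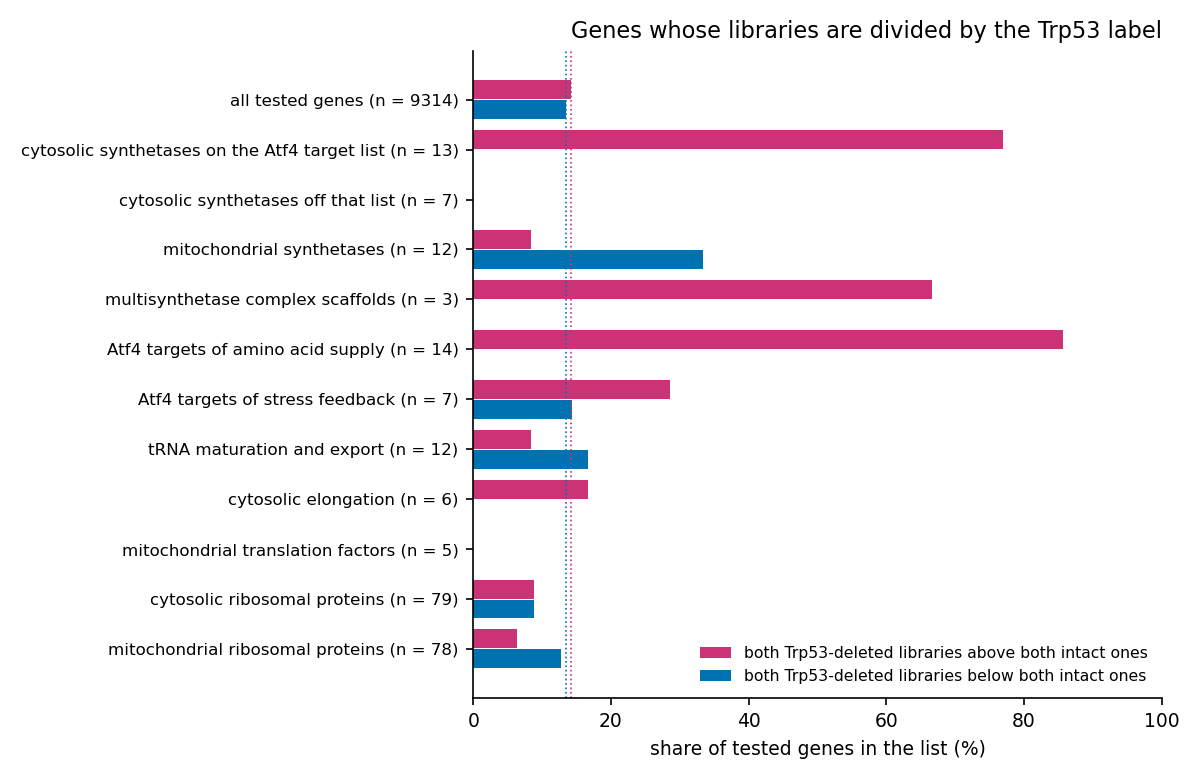
Share of the tested genes of each list (%) in which both Trp53-deleted libraries were above (pink) or below (blue) both intact ones, with the number of tested genes in brackets and the shares over all genes, 14.2% and 13.4%, as dotted lines. Cytosolic synthetases on the Atf4 target list (10 of 13) and Atf4 targets of amino acid supply (12 of 14) have the long bars, and cytosolic synthetases off the list have none.

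Promoter sequences were examined for the element through which Atf4 and its C/EBP partners are known to bind, searched as TGATGNAA on both strands, where N is any base. Windows from 250 bases before to 50 bases after the annotated start were taken from RefSeq (GRCm38.p6), and 27 of the 37 members were matched by symbol. The element was found in 5 of 27 members, which were Tars, Yars, Gars, Aars and Iars, against 4.51% of 27025 genes and 3.97% of all 32851 windows. All 5 belong to the 10 cytosolic genes above in both deleted libraries, of which 7 had a window. The element was in 0 of the 6 other cytosolic members with a window and in 0 of 14 mitochondrial ones. Of the 7, Eprs and Sars had no match. For each of these genes the match nearest the start is printed here with its flanks, because it is the sequence feature these members have in common, as 30 bases read 5′ to 3′ on the strand that carries TGATGNAA, with the element in capitals.
Tars, chr15:11399655-11399684, plus strand: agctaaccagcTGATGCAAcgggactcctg
Yars, chr4:129189895-129189924, plus strand: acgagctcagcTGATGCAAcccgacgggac
Iars, chr13:49682126-49682155, minus strand: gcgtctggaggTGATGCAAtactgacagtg
Gars, chr6:55037960-55037989, minus strand: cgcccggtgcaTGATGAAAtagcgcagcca
Aars, chr8:111033840-111033869, minus strand: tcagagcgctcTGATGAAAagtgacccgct

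In the matches printed, the variable base was C in Tars, Yars and Iars and A in Gars and Aars. Only the nearest match of a gene was placed, a choice that favours short distances. Aars has a further match, TGATGCAA, with its first base at -112, which was not placed. The first base lay at -30 in Gars, -15 in Tars, 3 in Yars, 7 in Iars and 9 in Aars, where 0 is the first transcribed base. The element lay on the strand opposite to transcription in Tars, Iars, Gars and Aars and on the transcribed strand in Yars. The RefSeq starts of Tars, Yars, Iars and Aars lie inside the genes as annotated by GENCODE, and that of Gars lies outside its gene, so that these positions hold for the RefSeq starts only.

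The 150 bases before the start of Gars and Tars are shown on the strand of the gene, to place the element against the start at the right-hand end, with the reverse complement of TGATGNAA in capitals.
Gars, chr6:55037851-55038000, plus strand: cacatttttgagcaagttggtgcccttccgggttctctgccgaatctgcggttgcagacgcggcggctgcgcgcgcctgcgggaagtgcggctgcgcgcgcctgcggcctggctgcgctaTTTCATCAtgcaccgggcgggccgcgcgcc
Tars, chr15:11399659-11399808, minus strand: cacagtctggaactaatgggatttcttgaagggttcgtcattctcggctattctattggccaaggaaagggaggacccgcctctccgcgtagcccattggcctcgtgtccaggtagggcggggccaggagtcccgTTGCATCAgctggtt

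For comparison, 2 other motifs were searched in the same windows. The E-box CACGTG was in 5 of 27 members (Aars, Iars, Tars, Farsb and Ears2), against 8.09% of all genes. It was in 3 of the 7 cytosolic members above in both deleted libraries, in 1 of the 6 others and in 1 of 14 mitochondrial ones. Aars, Iars and Tars thus held both the E-box and TGATGNAA. The cyclic AMP response element TGACGTCA was in 0 of 27, against 2.03% of all genes. Neither overlaps the matches printed above. Among Atf4 targets of amino acid supply TGATGNAA was in 3 of 13 genes with a window, which were Asns, Pycr1 and Slc7a11. Pycr1 did not divide by the Trp53 label and Slc7a11 was under 10 TPM. Of the 10 tested supply genes with a window that were above in both deleted libraries, 1 (Asns) had the element, beside 5 of 7 such synthetases. A match is a string of letters and was not tested as a binding site.

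**Figure D4:**
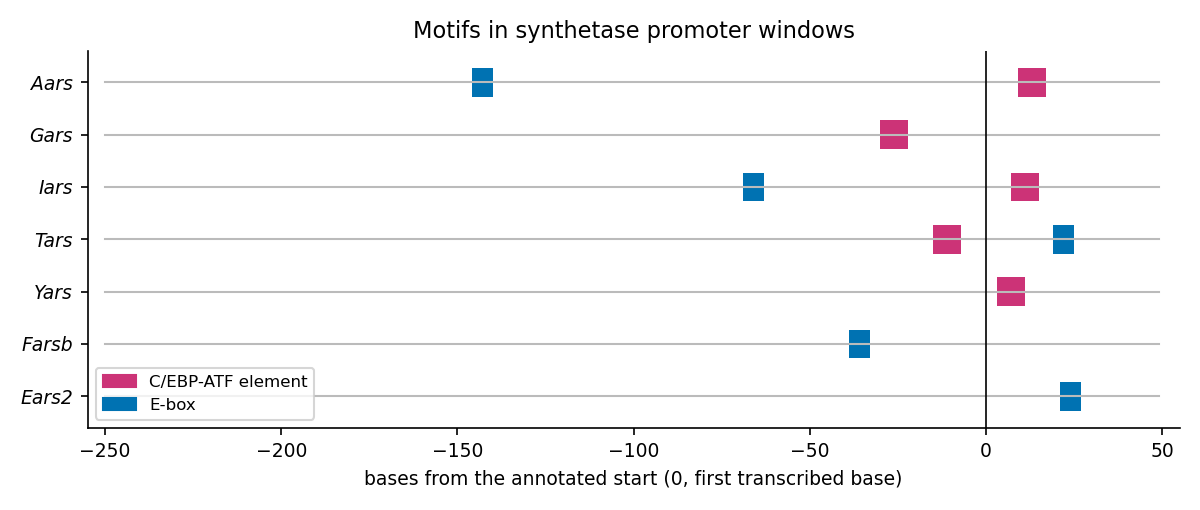
Position of the TGATGNAA match nearest the start (C/EBP-ATF element, pink) and of the E-box (blue) in the promoter windows of the 7 members with a match, in bases from the annotated start at 0. The pink boxes of 5 genes lie within 30 bases of the start.

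More of the mitochondrial members were below than above in the deleted libraries. Of 12 tested over the 4 libraries, 1 had both deleted libraries above both intact ones, against 14.2% of all genes, and 4 had both below, against 13.4%. With 10 TPM required in all libraries, which left out Lars2, it was 1 and 3 of 10. The higher one was Yars2 (tyrosine), at 24.3 and 26.49 TPM in the intact and 26.54 and 28.7 TPM in the deleted libraries. Its margin was gone when the median of all genes was set to 0. The 4 lower ones were Fars2, Lars2, Cars2 and Rars2.

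Fars2 (phenylalanine, chromosome 13, 36117412 to 36726280) was at 20.2 TPM in the control, 17.6 TPM in Tut1 KO, 15.0 TPM in Trp53 KO and 16.02 TPM in double KO cells, with differences of -0.41 and -0.12. Lars2 (leucine, chromosome 9, 123366927 to 123462666) was at 8.58, 10.4, 7.55 and 7.25 TPM, and it passed the filter only through the Tut1 KO library. Cars2 (cysteine, chromosome 8, 11513977 to 11550783) was at 22.3, 21.8, 20.9 and 18.3 TPM. Rars2 (arginine) was at 33.5, 32.6, 29.6 and 31.8 TPM. Fars2 and Cars2 overlap genes on the opposite strand, so that 2 of the 4 lower members are free of shared exons. Aars2, among the 4 members with the lowest mean over both contrasts, was at 16.01, 18.1, 13.5 and 17.7 TPM, and its libraries did not divide by the Trp53 label.

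Both genes for an amino acid could also be set against each other within a library. The ratio of cytosolic to mitochondrial level was higher in both deleted libraries than in both intact ones in 9 of 17 pairs, lower in 1 (Eprs to Pars2, where Pars2 was under 10 TPM) and divided in neither way in 7. The 9 include Wars to Wars2, by 6.63 against 6.64 with Wars2 under 10 TPM throughout, and Lars to Lars2, with Lars2 under 10 TPM in 3 libraries. No share for other gene pairs was computed. Cars was above in both deleted libraries and Cars2 below, and the ratio of Cars to Cars2 was 2.89 and 2.43 in the intact and 3.995 and 3.78 in the deleted libraries. Of the other higher pairs, the ratio of Aars to Aars2 was 5.46 and 4.18 against 6.58 and 5.84, and that of Sars to Sars2 was 8.47 and 6.32 against 10.2 and 9.14. In Yars to Yars2, where both genes were above, the ratio was 4.20 and 3.92 against 4.70 and 4.38. Among the 7 undivided pairs Nars to Nars2 was 10.5 and 15.9 against 13.2 and 15.3, and Tars to Tars2 was 1.28 and 1.77 against 1.75 and 1.98. These ratios are taken within a library and do not depend on its scaling.

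The Tut1 label was asked about with Trp53 intact, by Tut1 KO minus control, and without it, by double KO minus Trp53 KO. Cytosolic medians were -0.08 and 0.01, against -0.09 and 0.05 for all genes, and mitochondrial medians were -0.03 and 0.09. With both Tut1-labelled libraries set against both others, 1 cytosolic (Hars) and 3 mitochondrial members (Hars2, Aars2 and Sars2) were above, against 15.3% of all genes. Below were 3 cytosolic (Farsa, Lars and Mars1) and 3 mitochondrial members, Tars2 among them, against 17.1%. These counts of 4 and 6 among 32 tested members were near the shares over all genes.

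**Figure D5:**
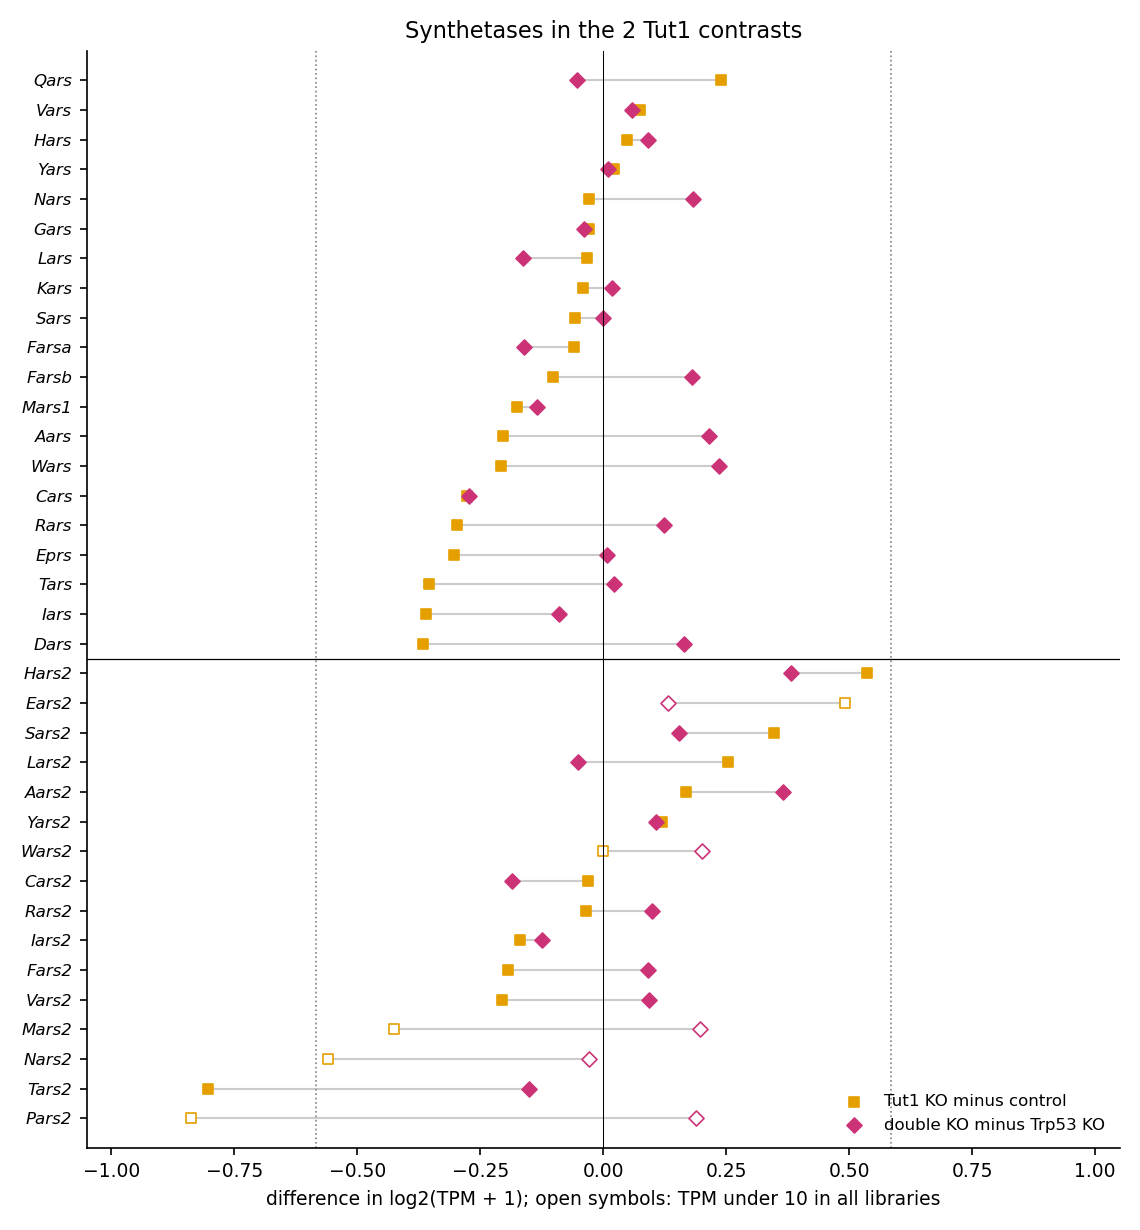
Difference in log2(TPM + 1) of 36 synthetases in Tut1 KO minus control (squares) and double KO minus Trp53 KO (diamonds), cytosolic members above the horizontal line, with a grey line joining the 2 values of a gene and dotted lines at a 1.5-fold change. Open symbols mark members with TPM under 10 in all libraries. Tars2 at -0.80 is the one plotted member with filled symbols outside the dotted lines, and most cytosolic members lie further left in Tut1 KO minus control.

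Tars2 (threonine, chromosome 3, 95739976 to 95760206) was at 35.0 TPM in the control, 19.6 TPM in Tut1 KO, 26.8 TPM in Trp53 KO and 24.0 TPM in double KO cells. All Cre-treated libraries were lower than the control, and the Tut1 contrasts were -0.80 with Trp53 intact and -0.15 without it. Hars2 (histidine) was at 14.9, 22.01, 18.3 and 24.2 TPM. Both libraries with the Tut1 label were higher than both others, with differences of 0.54 and 0.38, and double KO minus control reached 0.67. Hars2 and Hars lie head to head and overlap at their 5′ ends on opposite strands, and Hars was at 99.0, 102.5, 95.9 and 102.3 TPM.

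Cytosolic members with the lowest differences in Tut1 KO minus control were Dars, Iars and Tars, with -0.37, -0.36 and -0.35, and their differences in double KO minus Trp53 KO were 0.16, -0.09 and 0.02. After the correction for GC content and length the values in Tut1 KO minus control were -0.0820 for Dars, -0.16 for Iars and -0.13 for Tars, and that of Eprs was -0.068 from -0.30. A difference above 0 was seen in 4 of 20 cytosolic members with Trp53 intact, beside 3547 of 9032 genes, and in 13 of 20 without it, beside 5272 of 8976 genes. Above the median of all genes lay 10 and 8 of 20. The library labelled Tut1 KO also departed from the others by GC content over all genes, with a Spearman rho of 0.47 between transcript GC content and the deviation from the median of the other libraries, across 8469 genes that are not independent replicates. The rho was -0.29 in the double KO library, -0.23 in the control and 0.072 in Trp53 KO, so that double KO minus Tut1 KO set both extremes against each other. The part of GC content, and of the Xist difference between libraries, in the low cytosolic values of the Tut1 KO library was not tested.

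Members with TPM under 10 in all 4 libraries were Nars2, Ears2, Mars2, Wars2 and Pars2, and they entered the levels, pairs and promoter counts above but no count of differences. Pars2, the mitochondrial proline enzyme, was at 3.44 TPM in the control, 1.48 TPM in Tut1 KO, 6.63 TPM in Trp53 KO and 7.69 TPM in double KO cells. Both deleted libraries were higher than both intact ones, with differences of 0.78 and 1.81, the widest of all members, with a gap of 0.78. Nars2 (asparagine) was at 9.75, 6.30, 9.73 and 9.52 TPM, and Mars2 (methionine) at 5.22, 3.63, 4.79 and 5.63 TPM, both lowest in the Tut1 KO library. Ears2 (glutamate) was at 4.73, 7.06, 5.86 and 6.52 TPM, and Wars2 (tryptophan) at 5.61, 5.61, 4.82 and 5.69 TPM. At such levels the counting error is unknown, and a difference could not be told from it.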

How the data were processed

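RNA levels had been measured in 4 libraries of primary mouse neural stem cells, 1 per group. The authors deposited 1 table of TPM for 55487 Ensembl gene IDs. The submitters' processing notes name Trimmomatic, HISAT2, StringTie and mm10, with versions not given in the sources used here. The labels name a stranded short-read mRNA kit, while the text of the series describes long reads, and strand use in counting is not stated. TPM keeps no depth, so that counting error is unknown and no interval or p-value is given.

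Differences of log2(TPM + 1) were taken between deposited libraries over genes that reached 10 TPM in 1 or more of the compared libraries (of all 4 where all were used). Calls needed a log2 difference of 1, or a 1.5-fold change. Members, gene lists and contrasts were chosen with earlier results of these data known. Any member could be named. All 4 values were given for the 8 largest and 4 smallest mean differences over both Trp53 contrasts, for members past 1.5-fold and for those under 10 TPM throughout. By the rule, other genes were named if they were past 1.5-fold in both Trp53 contrasts or were Atf4, Asns, Xpot, a complex scaffold, Tut1, Trp53, Cdkn1a or Mdm2. Values for further members, and the names of motif-bearing, marker and overlapping genes, were added after they were seen. Sex-linked Xist was chosen after its values were seen.

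Coordinates, overlaps, GC content and lengths (longest protein-coding transcript) came from GENCODE M21 (GRCm38), which held all 37 members. The values of 1 member and 1 sequence are not reported here. Alternatives were pseudocounts of 0.1 and 5, a TPM minimum of 1, no minimum, 10 in all libraries, quantile normalization, medians set to 0, TPM rescaled without cytosolic ribosomal protein genes and mitochondrially encoded ones, and the larger call. A GC and length correction (quadratic fit to each library's deviation from the mean), a gap of 0.1, leaving out genes with shared exons and leaving out the library labelled Tut1 KO were chosen after seeing the data. The code was tested on simulated libraries. Scripts ran in Python 3.11.15 with pandas 2.3.3, numpy 2.4.6, matplotlib 3.10.9 and scipy 1.17.1.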

Additional observations from a re-analysis of the deposited data

How the results depend on the processing

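No paired analysis was possible because each group had 1 library and no test was run. A median was taken as moved at 0.1 or more on the log2 scale and a count beyond 1.5 times. Of 188 recomputed medians and counts, 155 stayed within these limits. The cytosolic count of 10 above in both Trp53-deleted libraries ranged from 9 to 12 under the scaling, filter and GC settings. It was 7 of 14 without genes of shared exons and 5 with a gap of 0.1. Without the library labelled Tut1 KO it was 11, by a looser rule that keeps all 10 and that 26.9% of all genes met. The mitochondrial count above (1) was 2 without a minimum, at a minimum of 1 or, by the looser rule, without the library labelled Tut1 KO. It was 0 with medians set to 0, quantile normalization, ribosomal genes removed, the GC correction or the gap. The mitochondrial count below (4 of 12) was 2 of 12 with the gap and 2 of 6 without genes of shared exons. Vars left the 10 with medians at 0, quantile normalization or ribosomal genes removed. Farsb joined with the former 2 settings and, with Kars, under the GC correction. The mitochondrial median in Tut1 KO minus control (-0.03) was 0.081 under quantile normalization and 0.12 under the GC correction, and the cytosolic one in double KO minus Tut1 KO (0.27) was 0.13 under the latter. Calls of 1.5-fold in Tut1 KO minus control (1) were 2 at a minimum of 1, without a minimum, with medians at 0, quantile normalization or the GC correction, and 0 at the larger call. In double KO minus Trp53 KO (0) they were 1 with pseudocount 0.1, medians at 0, quantile normalization, ribosomal genes removed or the GC correction. In both Trp53 contrasts (0 each) they were 1 at a minimum of 1 or none. In double KO minus control (1) they were 0 with pseudocount 5 or the larger call and 2 at a minimum of 1 or none. The causes were not tested. Depth is unknown, which limits the members under 10 TPM most.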
